A study of Mus musculus with 4 samples.

Results

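The potassium channel genes of the embryonic mouse telencephalon were taken as the rows of the expression table whose symbol is Kcn followed by letters and a number, leaving out Kcne2. This gave 90 genes among the 30637 listed. Of these, 43 were expressed, defined as a mean of at least 1 FPKM (fragments scaled by exon length and by library depth) over the 4 libraries, and 47 fell below that mean. RNA came from telencephalic tissue, the source of cortex and basal ganglia, of C57BL/6 embryos at embryonic day 13. Pd1CKO, a conditional knockout of Pd1, was represented by the libraries Pd1CKO 1 and Pd1CKO 2, and the control by control 1 and control 2. Titles call the controls wild type, while the design text calls them Pd1fl/fl (floxed, without a stated Cre). The sources used here give neither the Cre driver nor the exons removed nor the litters, and any p-value therefore reflects the spread among these 4 libraries, which may be technical. The study's title concerns the role of Pd1 in neural progenitors.

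Potassium channels let potassium ions leave or enter the cell down their gradient, which sets the resting potential and ends action potentials. Each channel is a complex of pore-forming subunits, which may be opened by voltage (Kcna, Kcnb, Kcnc, Kcnd, Kcnh, Kcnq), by calcium, sodium or pH (Kcnma, Kcnn, Kcnt, Kcnu), or may pass current mainly inward (Kcnj) or as a leak (Kcnk). Auxiliary subunits (Kcnab, Kcne, Kcnip, Kcnmb) and modifier subunits that form no channel on their own (Kcnf, Kcng, Kcns, Kcnv) change how the pores behave. In the developing brain, progenitors and young neurons express different sets, and several of these genes are known from epilepsy.

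The FPKM values implied 18730000 counted fragments in Pd1CKO 1, 18100000 in Pd1CKO 2, 18570000 in control 1 and 16190000 in control 2. Pdcd1, the gene of the PD-1 receptor, was listed at 0 in both Pd1CKO libraries and in control 1 and at 0.416 FPKM in control 2, so it did not check the genotype. In a principal component analysis of log2(FPKM + 1), 81.6% of the variance lay on the axis that separates the libraries numbered 2 from those numbered 1, and the labels do not say what the number stands for. Pd1CKO 2 was the library with Y-linked expression, with Ddx3y at 9.48 FPKM there and 0 elsewhere, and it also lacked Xist (0.003 FPKM, against 34.7 to 61.2 in the others). Of the forebrain markers, Lhx2 had 131 and 58.6 FPKM in Pd1CKO 1 and 2 and 104 and 61.9 in control 1 and 2 and Emx1 had 65.2 and 16.3 FPKM in Pd1CKO 1 and 2 and 54.1 and 13.8 in control 1 and 2.

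The start region is shown for Kcna3, the gene with the largest genotype difference among the expressed members, and for a relative with at most 1 fragment in any library, Kcna7, known from muscle. Both encode pore subunits of the Kcna subfamily. The stretches run from 250 bases before to 50 bases after the start in RefSeq (GRCm38.p6), on the plus strand, at chr3:107035912-107036211 for Kcna3 and at chr7:45405710-45406009 for Kcna7. Capitals mark each CG dinucleotide, which reads the same on both strands.
Kcna3: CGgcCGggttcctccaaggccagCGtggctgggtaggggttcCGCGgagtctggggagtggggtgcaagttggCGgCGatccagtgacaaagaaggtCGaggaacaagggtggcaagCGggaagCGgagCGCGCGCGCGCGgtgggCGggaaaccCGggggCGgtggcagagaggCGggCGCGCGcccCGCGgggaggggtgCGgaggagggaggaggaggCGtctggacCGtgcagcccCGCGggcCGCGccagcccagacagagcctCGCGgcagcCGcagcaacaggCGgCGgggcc
Kcna7: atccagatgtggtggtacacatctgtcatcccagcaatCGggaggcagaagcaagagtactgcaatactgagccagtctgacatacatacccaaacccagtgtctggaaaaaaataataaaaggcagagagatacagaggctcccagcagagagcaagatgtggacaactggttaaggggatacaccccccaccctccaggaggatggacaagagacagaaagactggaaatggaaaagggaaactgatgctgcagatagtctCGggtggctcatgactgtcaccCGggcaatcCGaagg
The Kcna3 region held 37 CG dinucleotides and was 75.0% G and C, while that of Kcna7 held 4 and was 50.3% G and C. As many as 37 CG dinucleotides were found in 5.6% of all 32851 RefSeq start regions of this length, and 4 or more in 68.6%. The letters TATAAA, searched on both strands, were in neither region and in 13.6% of all. RefSeq start regions were matched for 65 of the 90 genes, too few (72.2%) for a comparison across members, so no such comparison was made. Single members also went the other way. The region of Kcng3, with a mean of 0.016 FPKM, held 49 CG dinucleotides, and that of the expressed Kcnj9 held 5.

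Expressed members came from all 6 kinds of subunit. Of the 29 voltage-gated pore genes 18 were expressed, as were 6 of 8 genes of ion-activated pores, 5 of 14 genes of two-pore leak channels, 5 of 15 inward rectifiers, 3 of 10 modifiers and 6 of 14 auxiliary genes. The median level of the expressed members was 3.02 FPKM, against 7.19 FPKM over the 13927 genes at or above the same mean. The 3 genes of the Kcnd subfamily, which carry the fast transient A-type current, were all expressed, and none of the Kcns modifiers or of the Kcne auxiliary genes examined was.

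**Figure D1:**
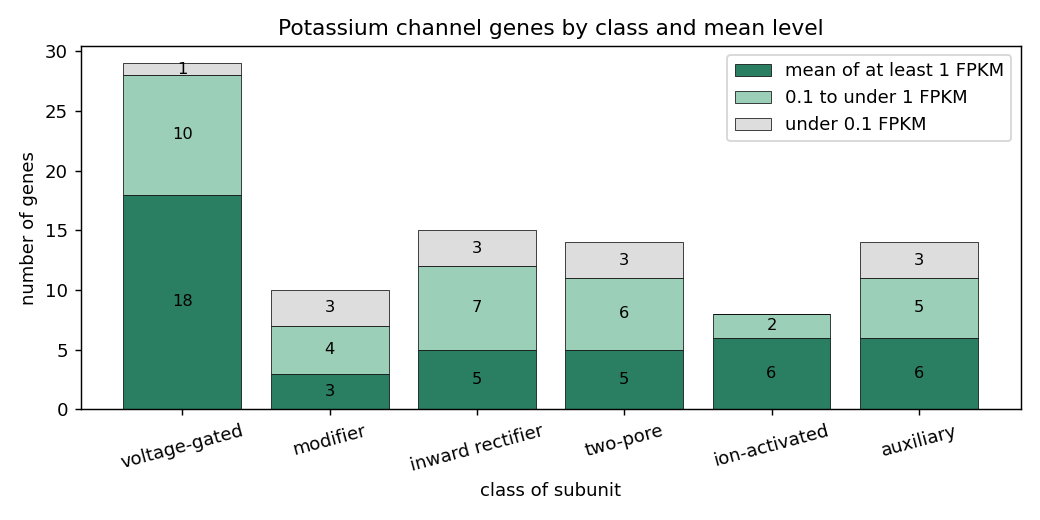
Number of potassium channel genes in each class of subunit, divided by mean FPKM over the 4 libraries. Voltage-gated pores were the largest class, with 18 of 29 genes at a mean of at least 1 FPKM, while 5 of 15 inward rectifiers reached it.

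Among voltage-gated pores, Kcnc1, known from fast-spiking neurons, had 4.69 and 7.32 FPKM in Pd1CKO 1 and 2 and 4.53 and 7.73 in control 1 and 2. Its levels came in a low and a high pair that followed the library number and not the genotype.

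Leak and auxiliary genes made up much of the rest of the upper range. Kcnip3, a calcium sensor of Kcnd channels that also acts as a transcriptional repressor, had 7.92 and 11.8 FPKM in Pd1CKO 1 and 2 and 8.70 and 11.7 in control 1 and 2. Kcnk2, a leak channel opened by stretch, had 6.27 and 10.05 FPKM in Pd1CKO 1 and 2 and 6.68 and 10.04 in control 1 and 2. Its close relative Kcnk10 had 4.69 and 6.04 FPKM in Pd1CKO 1 and 2 and 4.38 and 6.54 in control 1 and 2. All of these were high in both libraries numbered 2, and 12.2% of the exon bases of Kcnk2 overlap the antisense gene A430027H14Rik, at 0.728 to 1.56 FPKM. Kcnab2, an auxiliary subunit of Kcna channels, differed little by library number, with 5.34 and 6.09 FPKM in Pd1CKO 1 and 2 and 5.85 and 6.13 in control 1 and 2. Kcng1, a modifier of Kcnb channels, had 5.40 and 8.001 FPKM in Pd1CKO 1 and 2 and 5.26 and 6.71 in control 1 and 2. Kcnf1, another modifier, ranged from 1.34 FPKM in control 1 to 2.27 in Pd1CKO 2.

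**Figure D2:**
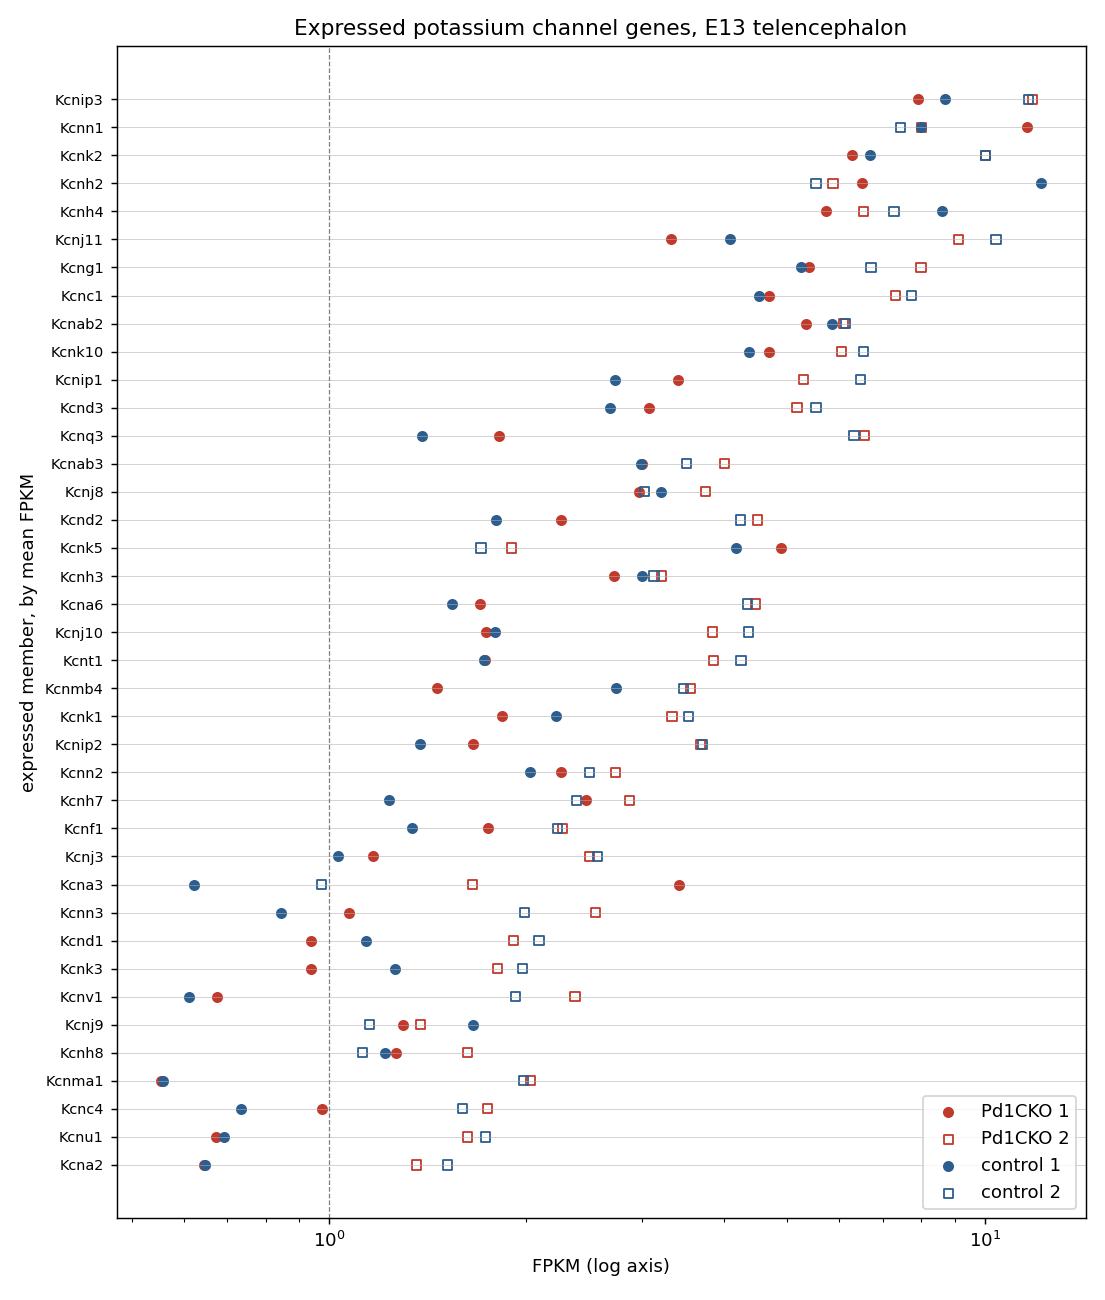
FPKM (log axis) of 39 of the 43 expressed potassium channel genes in each library, ordered by mean, with Pd1CKO in red, control in blue, filled circles for number 1 and open squares for number 2. Kcnip3 is the highest of those plotted with 7.92 to 11.8 FPKM, the squares lie to the right of the circles for most genes, and for Kcna3 both Pd1CKO symbols (3.42 and 1.66 FPKM) lie to the right of both control symbols (0.623 and 0.974).

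The threshold of 1 FPKM did not separate distinct groups. Just above it were Kcna2, a pore of axons, with a mean of 1.04 FPKM, and Kcnu1, the pH-sensitive channel known from sperm, with 1.18. Just below it were Kcnmb2 with 0.936 and Kcnip4 with 0.925. Below the threshold, 34 genes had a mean of at least 0.1 FPKM and 13 had less. The 13 were Kcnmb3, Kcng4, Kcnj15, Kcnj16, Kcnmb1, Kcnk18, Kcne1, Kcng3, Kcnk15, Kcnv2, Kcna7, Kcnk16 and Kcnj1. They include genes known mainly from other organs, such as Kcnj1 and Kcnj16 of the kidney, Kcne1 of the heart and inner ear, Kcnmb1 of smooth muscle, Kcnk16 of the pancreas and Kcnv2 of the retina. For Kcnk18, Kcnk15, Kcna7, Kcnk16 and Kcnj1 no library held more than 2 fragments. That is under the limit of 3 set here, the expected number that a count of 0 still allows. These genes were therefore called not detected at this depth, although single fragments were counted. This limit covers counting error only.

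Members between 0.1 and 1 FPKM included relatives of expressed genes in nearly every class. Kcnb2, a delayed rectifier pore, had 0.514 and 1.08 FPKM in Pd1CKO 1 and 2 and 0.469 and 1.03 in control 1 and 2. Kcnq5, another M-current subunit, had 0.319 and 1.21 FPKM in Pd1CKO 1 and 2 and 0.273 and 1.03 in control 1 and 2. Kcnc2, a relative of Kcnc1, had 0.284 and 1.26 FPKM in Pd1CKO 1 and 2 and 0.453 and 1.08 in control 1 and 2. These 3 genes passed 1 FPKM in both libraries numbered 2 and in neither numbered 1. Kcnh1, an EAG-type pore, had 0.466 and 1.12 FPKM in Pd1CKO 1 and 2 and 0.389 and 0.834 in control 1 and 2. Among rectifiers, Kcnj2, a classical strong inward rectifier, had 0.461 and 0.649 FPKM in Pd1CKO 1 and 2 and 0.465 and 0.601 in control 1 and 2. Both libraries numbered 2 lay above both numbered 1 for Kcnj2, with means 1.35-fold apart. Kcnk9, an acid-sensitive leak channel of neurons, had 0.226 and 0.728 FPKM in Pd1CKO 1 and 2 and 0.166 and 0.622 in control 1 and 2. Over the 47 genes below the threshold, both libraries numbered 2 lay above both numbered 1 for 21 (44.7%). The share was 21.2% of the 16710 listed genes under 1 FPKM. Both lay below both numbered 1 for 6 (12.8%, against 15.7%). These backgrounds were not matched to the members for level, and 34 of the 47 had a mean of at least 0.1 FPKM.

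Several genes of the mature brain were also among those with low levels. Kcna1, the axonal channel mutated in episodic ataxia, had 0.435 and 1.07 FPKM in Pd1CKO 1 and 2 and 0.203 and 0.969 in control 1 and 2. Kcnj6, a G protein-gated rectifier of midbrain dopamine neurons, stayed between 0.074 FPKM in control 1 and 0.319 in control 2. Kcns2, a modifier of Kcnb channels, had 0.067 and 0.633 FPKM in Pd1CKO 1 and 2 and 0.145 and 0.707 in control 1 and 2. For Kcna1, Kcnj6 and Kcns2 both libraries numbered 2 lay above both numbered 1, which was not tested at these levels. Kcnj13, a rectifier of the choroid plexus, was at 0.799 and 0.435 FPKM in Pd1CKO 1 and 2, at 0.170 in control 1 and was listed at 0 in control 2. Its values are uncertain, since 49.1% of its exon bases overlap exons of Gigyf2 on the opposite strand, which had 6.37 to 8.40 FPKM, and the sources used here do not say whether strand was used in counting. The choroid plexus markers Ttr, Clic6, Folr1, Kcne2, Aqp1, Kl, Otx2 and Slc4a5 summed to 279 and 345 FPKM in Pd1CKO 1 and 2 and to 209 and 21.7 in control 1 and 2. They were lowest where Kcnj13 was listed at 0, Kl was under 0.1 FPKM in every library, and their part in the result was not tested.

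The comparison of Pd1CKO with control asked whether loss of Pd1 goes with a change in these transcripts. No member passed limma at an adjusted p of 0.05, and 0 of the 13927 genes tested did (0%), and limma-voom, run on fragment numbers recovered from FPKM, also called 0. At an unadjusted p under 0.05 there was 1 member, Kcna3, and 47 genes in all (0.337%). Library number was not a term in this fit, so differences by number counted as spread within each group. That limited how many genes could pass, and the lack of calls does not show that genotype made no difference. With number as a block, 5 genes passed at an adjusted p of 0.05 in limma, and 0 members. Both Pd1CKO libraries lay above both controls for 4 of the 43 expressed members, against 8.37% of all genes tested, and below both for 2, against 6.14%. These shares (9.30% and 4.65%) were near the background. Within both pairs 17 members were higher in Pd1CKO (39.5%, against 28.2% of all genes tested) and 10 were lower (23.3%, against 23.5%). The median log2 difference of the members was 0.009, against 0.017 over all genes tested, and it was 0.031 within pair 1 and 0.019 within pair 2, where a pair is the Pd1CKO and the control library of the same number.

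Kcna3 encodes a voltage-gated pore known from T lymphocytes, where it sustains calcium entry, and from microglia, and it is also made by some neurons. The gene is a single block of 1902 exon bases on chromosome 3 (mm10, 107036169 to 107038070, plus strand). It had 3.42 FPKM in Pd1CKO 1 and 1.66 in Pd1CKO 2, against 0.623 in control 1 and 0.974 in control 2. Both Pd1CKO libraries were thus above both controls, with Pd1CKO 1 the highest and control 1 the lowest. The means were 2.54 ± 1.25 FPKM in Pd1CKO and 0.798 ± 0.248 in control (SD, n = 2 each), and the log2 difference was 0.94 ± 0.34 (SE, limma adjusted p = 0.9998). Since the control mean was under 1 FPKM, Kcna3 was tested only because of its Pd1CKO libraries, the only member of which this was so. The values rest on 122 and 57 fragments in Pd1CKO 1 and 2, against 22 and 30 in control 1 and 2. The fold was 5.50 in pair 1 (exact 95% counting interval 3.47 to 9.10) and 1.70 in pair 2 (1.07 to 2.74), and with a pseudocount of 0.1 in place of 1 the log2 difference was 1.5.

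Markers of the cells known for Kcna3 were read in the same libraries, and the defining T cell genes were at or near 0. Cd3d, Cd3e, Cd3g and Cd8a were each under 0.1 FPKM in every library, Cd4 was at most 0.147, and Lck, which neurons also express, made up nearly all of the list sum of 2.22 and 2.13 FPKM in Pd1CKO 1 and 2 and 2.06 and 2.67 in control 1 and 2. The microglial genes read were Tyrobp, Cx3cr1, C1qa, C1qb, Aif1, Csf1r, P2ry12 and Fcer1g. They summed to 27.4 and 20.6 FPKM in Pd1CKO 1 and 2 and to 23.3 and 20.0 in control 1 and 2. In both Pd1CKO libraries 2 of the 8, Tyrobp and Csf1r, were above both controls, as were 8.37% of all genes tested. For Csf1r the margin was small, with 2.79 FPKM in Pd1CKO 2 against 2.77 in control 2. None of the 8 was at 0, and their part in the Kcna3 difference was not tested. Kcna2, whose gene lies 63.1 kb away on the same chromosome, had 0.646 and 1.36 FPKM in Pd1CKO 1 and 2 and 0.647 and 1.51 in control 1 and 2. Its genotype difference was -0.05 ± 0.35 on the log2 scale. In the authors' deposited table of genes with a Pd1CKO 1 to control 1 ratio above 2, which lists 1714 genes (5.59% of all), 8 members appear (8.89% of the 90), and Kcna3, with a ratio of 5.50, is the one among them that was expressed.

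Other members with the smallest p-values did not pass either. Kcnh7, a pore of the ERG type, had 2.46 and 2.88 FPKM in Pd1CKO 1 and 2, against 1.23 and 2.38 in control 1 and 2. Its log2 difference was 0.41 ± 0.29, and the groups were separated mainly by the low value of control 1. Kcnn1, a calcium-activated channel that shapes the pause after a spike, had 11.6 and 8.01 FPKM in Pd1CKO 1 and 2, against 7.99 and 7.44 in control 1 and 2. Here Pd1CKO 1 stood apart, and Pd1CKO 2 lay close to both controls. Kcnh8 had 1.26 and 1.62 FPKM in Pd1CKO 1 and 2, against 1.22 and 1.12 in control 1 and 2. Kcnn3, a relative of Kcnn1, had 1.07 and 2.55 FPKM in Pd1CKO 1 and 2, against 0.845 and 1.98 in control 1 and 2. The groups overlapped across library numbers, while within both pairs Pd1CKO was higher. For Kcnn3 the fold was 1.27 in pair 1 (exact counting interval 1.03 to 1.57) and 1.28 in pair 2 (1.11 to 1.48). The intervals cover counting error only, and with number as a block the limma adjusted p of Kcnn3 was 0.959.

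On the lower side, Kcnh4, a neuronal pore of the ELK type, had 5.72 and 6.54 FPKM in Pd1CKO 1 and 2, against 8.62 and 7.28 in control 1 and 2, with a log2 difference of -0.33 ± 0.20. Kcnh2, the ERG channel also known from the heart, had 6.50 and 5.87 FPKM in Pd1CKO 1 and 2, against 12.2 and 5.53 in control 1 and 2. Kcnh2 had 1 high library, control 1, and without it the log2 difference turned to 0.14. In both genes control 1 was the highest library. The same library held the highest sum of the diencephalic markers Gbx2, Tcf7l2, Olig3, Lhx9, Sim1, Otp, Irx3 and Shox2, with 14.0 and 11.6 FPKM in Pd1CKO 1 and 2, against 51.3 and 14.0 in control 1 and 2. All 8 markers were highest in control 1, none was at 0, and their part in these results was not tested. Kcnmb4, the neuronal auxiliary subunit of the large conductance calcium-activated channel, had 1.46 and 3.56 FPKM in Pd1CKO 1 and 2, against 2.74 and 3.47 in control 1 and 2, and 20.8% of its exon bases overlap the antisense gene Kcnmb4os2, at 1.98 and 0.518 FPKM in Pd1CKO 1 and 2 and at 2.55 and 0.915 in control 1 and 2. Kcnk3, an acid-sensitive leak channel, had 0.940 and 1.81 FPKM in Pd1CKO 1 and 2, against 1.26 and 1.97 in control 1 and 2.

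**Figure D3:**
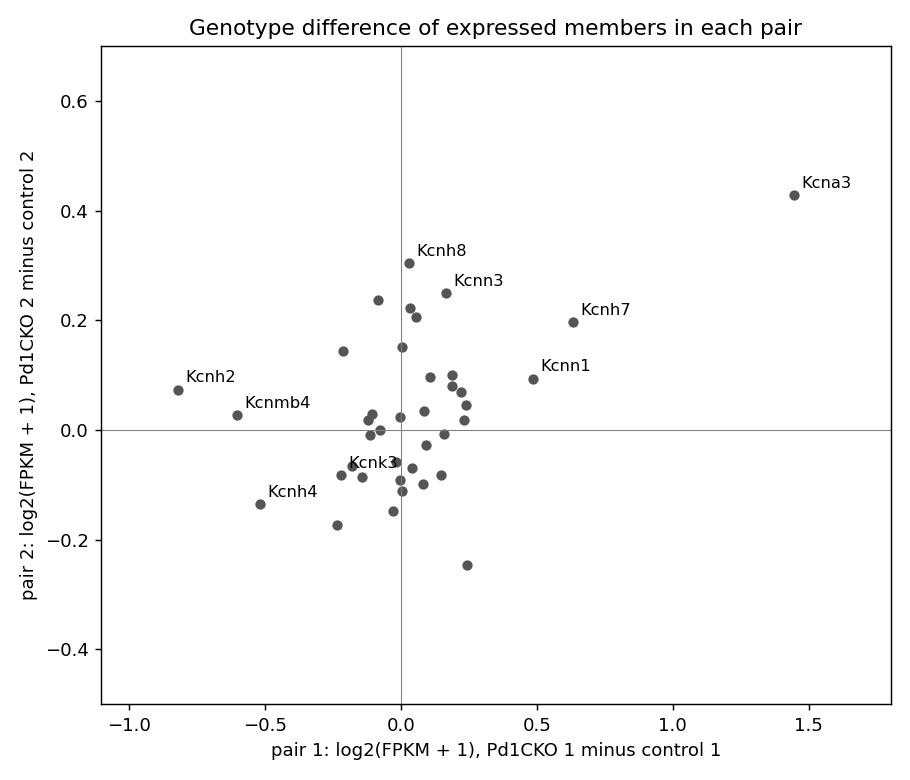
Difference in log2(FPKM + 1) between Pd1CKO and control within pair 1 (horizontal axis) and pair 2 (vertical axis) for 39 of the 43 expressed members, 1 point per gene. Kcna3 lies farthest to the upper right at 1.45 and 0.43, Kcnh4 lies at the lower left at -0.52 and -0.13, and most points cluster near 0.

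The larger differences among these genes ran between library numbers. With limma, 25 of the 43 expressed members were higher in the libraries numbered 2 than in those numbered 1 at an adjusted p under 0.05, and 1, Kcnk5, was lower. Over all genes tested, 16.5% were higher and 18.5% lower, so the members' shares (58.1% and 2.33%) lay above and below the background. The members' median log2 difference was 0.554, against 0.032 over all genes tested, and 36 of 43 were above 0. Both libraries numbered 2 lay above both numbered 1 for 33 members (76.7%, against 38.5%) and below for 2, Kcnh2 and Kcnk5 (4.65%, against 34.1%). Of the 43 members, 6 (Kcnn3, Kcnv1, Kcnma1, Kcnc4, Kcnu1 and Kcna2) had a mean under 1 FPKM in the libraries numbered 1 and were tested because of those numbered 2. Among the remaining 37 the counts were 19 higher and 1 lower. The share over all genes under that same restriction was not computed, so these counts have no matching background. With no filter, both libraries numbered 2 lay above both numbered 1 for 54 of the 90 members (60.0%, against 29.1% of all listed genes). Both lay below both numbered 1 for 8 (8.89%, against 24.1%). These backgrounds were not matched to the members for level. Without control 2 or without Pd1CKO 2, fewer members passed and so did fewer of all genes. The members' median log2 difference by number was then 0.519 and 0.561. With the threshold raised to a mean of 2 FPKM, which tests fewer members, 17 members passed, and 4538 of all genes did.

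Markers of several cell types also differed by library number. At an adjusted p under 0.05 in limma, 16.5% of all genes tested were higher in the libraries numbered 2 and 18.5% lower. The neuronal genes Tubb3, Dcx, Stmn2, Map2, Rbfox3, Gap43, Snap25 and Syt1 summed to 2061 FPKM in Pd1CKO 2 and 2099 in control 2, against 1090 in Pd1CKO 1 and 1595 in control 1, and 6 of the 8 rose. Of the radial glia genes Sox2, Nes, Pax6, Vim, Hes5, Fabp7, Slc1a3 and Prom1, 6 of 8 fell and 2 rose, with sums of 590 FPKM in Pd1CKO 2 and 608 in control 2, against 820 in Pd1CKO 1 and 876 in control 1. The meningeal genes Col1a1, Col1a2, Dcn, Lum, Foxc1 and Col3a1 fell in 6 of 6, with sums of 2.88 FPKM in Pd1CKO 2 and 1.99 in control 2, against 84.1 in Pd1CKO 1 and 46.1 in control 1. Of the endothelial genes 4 of 6 fell, with sums of 31.0 FPKM in Pd1CKO 2 and 31.8 in control 2, against 61.6 in Pd1CKO 1 and 54.4 in control 1. Of the 6 forebrain markers 5 fell, Lhx2, Emx1, Emx2, Dlx1 and Dlx2. Of the 8 erythroid genes 4 fell and 2 rose. The embryonic globin gene Hbb-y had 68.0 FPKM in Pd1CKO 2 and 101 in control 2, against 1079 in Pd1CKO 1 and 981 in control 1, while the adult globin gene Hbb-bs had 545 FPKM in Pd1CKO 2 and 570 in control 2, against 175 in Pd1CKO 1 and 190 in control 1. Of the 8 microglial genes 2 fell, a share near that of all genes tested. None of these markers was at 0 in any library. Their part in the potassium channel differences was not tested, and in bulk tissue fewer cells of a type and less RNA per cell cannot be told apart.

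Voltage-gated pores, the largest class, had 10 of 18 expressed members higher in the libraries numbered 2. That share was near the 58.1% of all expressed members, against 16.5% of all genes tested. Whether the classes differ was not tested. Kcnq3, a subunit of the channel that carries the M-current, had 6.56 FPKM in Pd1CKO 2 and 6.32 in control 2, against 1.82 in Pd1CKO 1 and 1.39 in control 1. Its means differed 4.02-fold, with a log2 difference of 1.52 ± 0.13 (SE, limma adjusted p = 0.00172). The ranges of the number sets were far apart and those of the genotypes overlapped. Kcna6, a pore of the Kcna subfamily, had 4.48 FPKM in Pd1CKO 2 and 4.35 in control 2, against 1.70 in Pd1CKO 1 and 1.54 in control 1. Of its exon bases, 39.6% overlap the antisense gene Gm26673, which was at or under 0.073 FPKM. Of the A-type pores, Kcnd3 had 5.17 FPKM in Pd1CKO 2 and 5.53 in control 2, against 3.08 in Pd1CKO 1 and 2.68 in control 1. Kcnd2 had 4.503 FPKM in Pd1CKO 2 and 4.24 in control 2, against 2.26 in Pd1CKO 1 and 1.798 in control 1, and Kcnd1, on the X chromosome, 1.91 and 2.09 against 0.939 and 1.14 in the same order. None of the ERG and ELK genes Kcnh2, Kcnh3, Kcnh4, Kcnh7 and Kcnh8 passed, and whether they differ from the other pores was not tested. Kcnh7 had a log2 difference of 0.38 ± 0.24. Kcnh2 had the lowest log2 difference of them, -0.57 ± 0.27, with 5.87 FPKM in Pd1CKO 2 and 5.53 in control 2, against 6.50 in Pd1CKO 1 and 12.2 in control 1. Kcnh3 had 3.21 FPKM in Pd1CKO 2 and 3.13 in control 2, against 2.72 in Pd1CKO 1 and 3.003 in control 1. Kcna3 had a difference of -0.23 ± 0.48.

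Ion-activated channels rose in 4 of 6 members, against 58.1% of all expressed members and 16.5% of all genes tested. Kcnma1, the pore of the large conductance calcium-activated channel, had 2.03 FPKM in Pd1CKO 2 and 1.98 in control 2, against 0.553 in Pd1CKO 1 and 0.558 in control 1. This was a 3.61-fold difference (log2 difference 0.95 ± 0.14, limma adjusted p = 0.00684). Kcnt1, a sodium-activated channel mutated in infantile epilepsy, had 3.86 FPKM in Pd1CKO 2 and 4.25 in control 2, against 1.73 in Pd1CKO 1 and 1.72 in control 1. The libraries of each number lay close together in both genes. Kcnn1 went the other way without passing, with a log2 difference of -0.29 ± 0.18, and its relative Kcnn2 had 0.20 ± 0.13 without passing, while Kcnn3 rose by 0.73 ± 0.16. Kcnv1, a modifier of Kcnb channels, rose as well and had 2.37 FPKM in Pd1CKO 2 and 1.92 in control 2, against 0.675 in Pd1CKO 1 and 0.610 in control 1.

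Of the 5 expressed inward rectifiers, 3 rose, against 58.1% of all expressed members and 16.5% of all genes tested. Kcnj11 forms the ATP-sensitive channel of neurons and pancreatic beta cells, and had 9.12 FPKM in Pd1CKO 2 and 10.4 in control 2, against 3.32 in Pd1CKO 1 and 4.09 in control 1 (log2 difference 1.20 ± 0.13, limma adjusted p = 0.00309). Kcnj10, known from astroglia, had 3.84 FPKM in Pd1CKO 2 and 4.36 in control 2, against 1.74 in Pd1CKO 1 and 1.79 in control 1. Kcnj3, a G protein-gated rectifier, had 2.50 FPKM in Pd1CKO 2 and 2.57 in control 2, against 1.17 in Pd1CKO 1 and 1.03 in control 1, and 31.1% of its exon bases overlap the antisense gene Gm26794 (at most 0.515 FPKM). Kcnj9, a partner of Kcnj3, did not pass, with a log2 difference of -0.13 ± 0.16. Kcnj8, the ATP-sensitive pore known from pericytes, did not pass either, with 3.75 FPKM in Pd1CKO 2 and 3.03 in control 2, against 2.97 in Pd1CKO 1 and 3.21 in control 1.

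Two-pore channels held the 1 member that fell. Kcnk5, an alkali-opened leak channel known from kidney and epithelia, had 1.90 FPKM in Pd1CKO 2 and 1.70 in control 2, against 4.89 in Pd1CKO 1 and 4.18 in control 1. Its log2 difference was -0.98 ± 0.13 (SE, limma adjusted p = 0.00499), while Kcnk1, Kcnk2 and Kcnk10 rose by 0.55, 0.56 and 0.40. Below the expression threshold and therefore not tested, Kcnk12, Kcne3, Kcne4, Kcnk7, Kcnn4 and Kcng2 were lower in both libraries numbered 2 than in both numbered 1, a share of the members below the threshold (12.8%) near that of all genes there (15.7%). Some rest on few fragments, as Kcnk7 with 4 in each library numbered 2, against 5 in Pd1CKO 1 and 9 in control 1. Kcne3, an auxiliary subunit of epithelial Kcnq1 channels, had 0.062 FPKM in Pd1CKO 2 and 0.139 in control 2, against 0.630 in Pd1CKO 1 and 1.51 in control 1. Kcnk12 had 0.114 FPKM in Pd1CKO 2 and 0.287 in control 2, against 1.10 in Pd1CKO 1 and 1.001 in control 1.

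**Figure D4:**
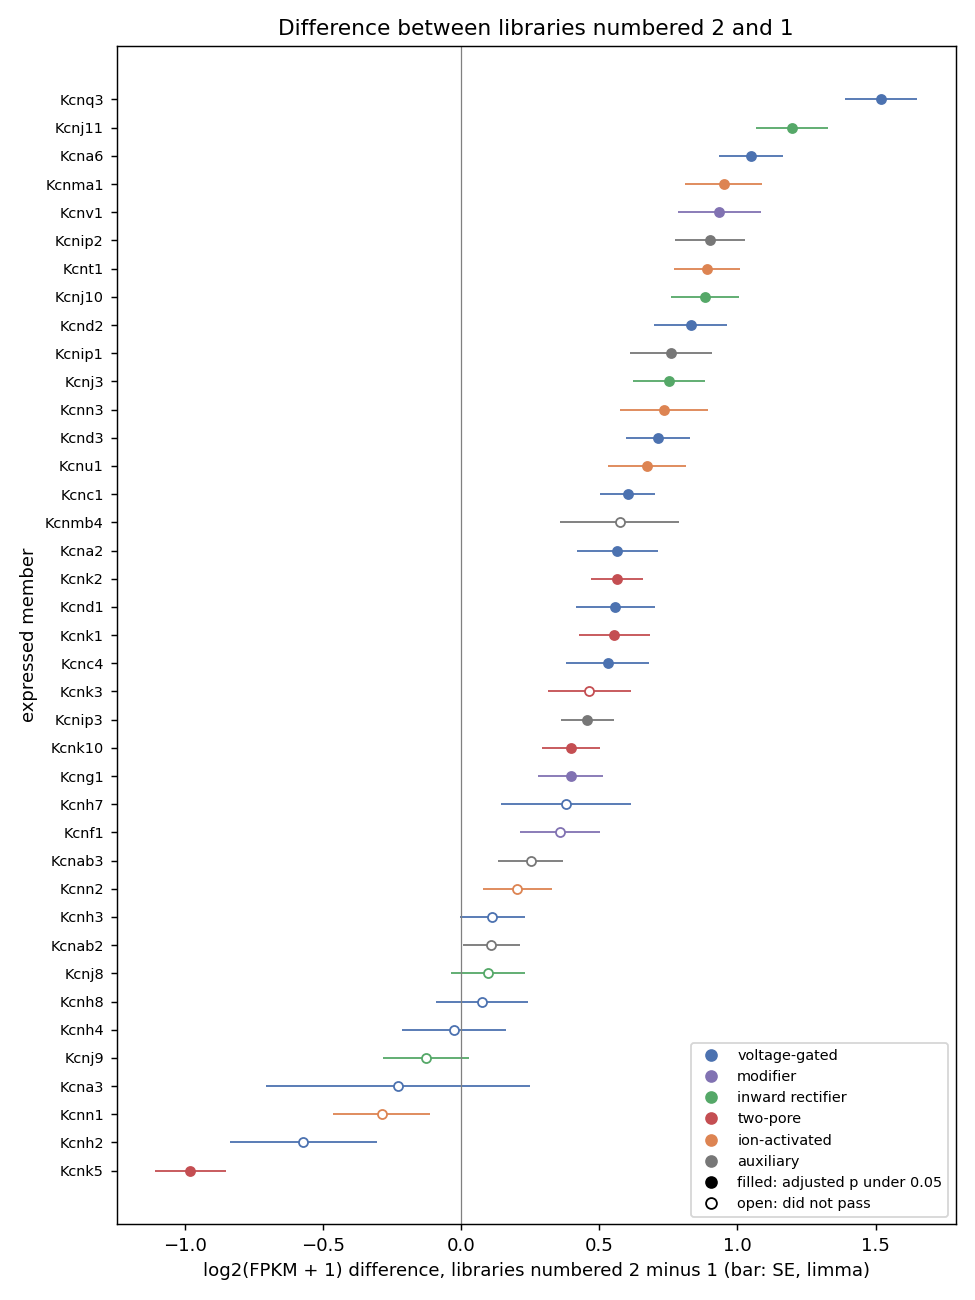
Difference in log2(FPKM + 1) between the libraries numbered 2 and those numbered 1 for 39 of the 43 expressed members, with the SE from limma, coloured by class of subunit, and filled where the adjusted p over all genes was under 0.05. Kcnq3 at 1.52 and Kcnj11 at 1.20 are at the top, Kcnk5 at -0.98 is at the bottom, and 33 of 39 points lie to the right of 0.

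Genes whose products assemble into 1 channel could be set side by side. Kcnj11 pairs with the sulphonylurea receptor gene Abcc8, which had 7.10 FPKM in Pd1CKO 2 and 7.81 in control 2, against 1.45 in Pd1CKO 1 and 1.28 in control 1 (log2 difference 1.84 ± 0.12, limma adjusted p = 0.000914). The other ATP-sensitive pair, Kcnj8 and Abcc9, did not pass, with log2 differences of 0.10 and 0.12, and Abcc9 had 1.58 FPKM in Pd1CKO 2 and 1.73 in control 2, against 1.68 in Pd1CKO 1 and 1.22 in control 1. The list of mural cell markers (the pericytes and smooth muscle of vessels), which holds Abcc9, went both ways by number. Of its 5 genes tested, Rgs5 rose (log2 difference 0.54 ± 0.13), Notch3 fell (-1.35 ± 0.09) and Pdgfrb, Cspg4 and Abcc9 did not pass. The 6 genes listed, with Anpep, summed to 27.2 FPKM in Pd1CKO 2 and 28.1 in control 2, against 41.6 in Pd1CKO 1 and 35.7 in control 1. None was at 0, and their part in the result was not tested. The Kcnd pores take up KChIP and DPP subunits. Of these, Kcnip1 had 5.30 FPKM in Pd1CKO 2 and 6.47 in control 2, against 3.41 in Pd1CKO 1 and 2.73 in control 1, and it rose by 0.76 ± 0.15. Kcnip2 had 3.69 FPKM in Pd1CKO 2 and 3.71 in control 2, against 1.66 in Pd1CKO 1 and 1.38 in control 1. Dpp6 had 7.29 FPKM in Pd1CKO 2 and 7.52 in control 2, against 2.88 in Pd1CKO 1 and 4.05 in control 1. For Kcnma1, the auxiliary gene Lrrc55 had 4.01 FPKM in Pd1CKO 2 and 4.24 in control 2, against 1.83 in Pd1CKO 1 and 1.58 in control 1. Lrrc55 passed (log2 difference 0.92 ± 0.12) and Kcnmb4 did not (0.57 ± 0.22).

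**Figure D5:**
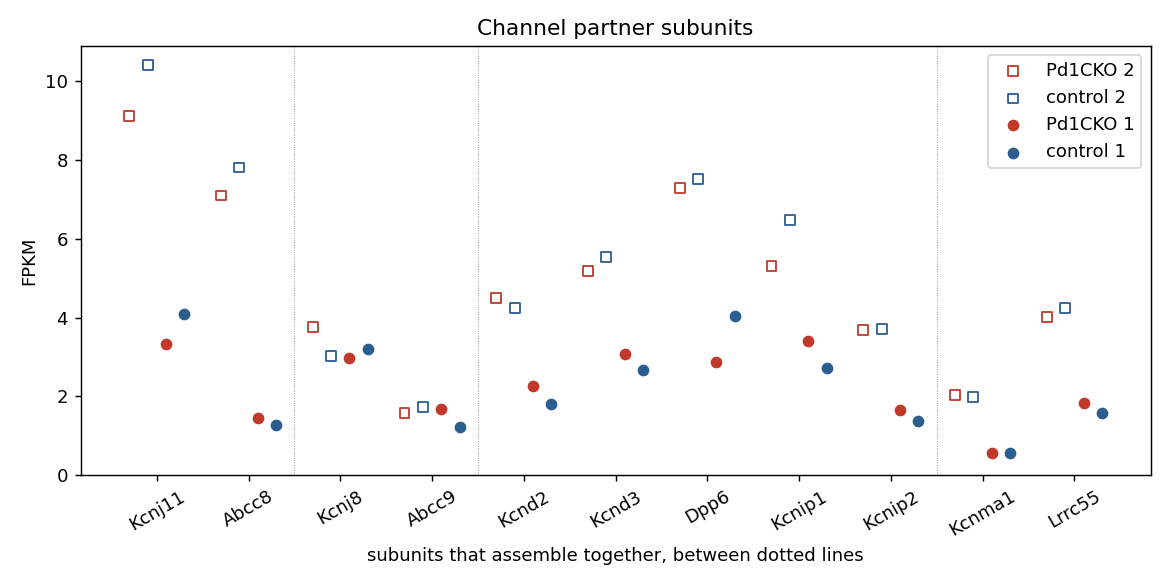
FPKM of subunits that assemble together, grouped between dotted lines, with open squares for the libraries numbered 2, filled circles for those numbered 1, Pd1CKO in red and control in blue. Kcnj11 and Abcc8 are both higher in the libraries numbered 2 (9.12 to 10.4 and 7.10 to 7.81 FPKM), while the symbols of Kcnj8 and Abcc9 lie within 2.97 to 3.75 and 1.22 to 1.73 FPKM.

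Other genes of excitability and potassium balance showed 0 members past the threshold for genotype in each of the 5 lists examined. By library number, 16.5% of all genes tested were higher in the libraries numbered 2 and 18.5% lower. Of the 8 expressed partner genes without a Kcn symbol, 5 rose and 1, Cntnap2, fell. Of 9 voltage-gated sodium channel genes 7 rose, among them Scn3b, an auxiliary subunit, with 25.3 FPKM in Pd1CKO 2 and 27.04 in control 2, against 10.8 in Pd1CKO 1 and 10.7 in control 1, and 1 fell. Of 14 voltage-gated calcium channel genes 6 rose and 0 fell. The presynaptic calcium channel gene Cacna1b was one that rose, with 8.99 FPKM in Pd1CKO 2 and 9.43 in control 2, against 4.42 in Pd1CKO 1 and 4.36 in control 1. None of the 3 expressed HCN pacemaker genes passed, including Hcn3, with 12.7 FPKM in Pd1CKO 2 and 12.9 in control 2, against 8.85 in Pd1CKO 1 and 11.2 in control 1. Of 11 genes of the sodium-potassium pump and potassium-chloride cotransport, 5 rose and 1 fell. Slc12a5, the neuronal chloride extruder, had 8.22 FPKM in Pd1CKO 2 and 8.88 in control 2, against 5.86 in Pd1CKO 1 and 5.86 in control 1, while Slc12a2, the chloride importer of immature cells, had 7.80 and 8.14 against 9.54 and 6.54 in the same order and did not pass.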

How the data were processed

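Poly(A)-selected RNA from 4 libraries was measured by RNA-seq, and the authors deposited 1 FPKM value per gene and library. The unit is not in the header. The values were read as FPKM because, multiplied by Gencode M21 exon length (found for 99.8% of genes and all 90 members), 97.3% to 97.5% of those below 200 fragments were whole within 0.1. The submitters' processing notes name mm10, FastQC, fastp, HISAT2, TopHat, StringTie and featureCounts, without roles or versions. A further deposited table gives the authors' ratio of Pd1CKO 1 to control 1 for genes above 2. The other tables repeat these values and were not used.

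Groups were compared with limma 3.58.1 (R 4.3.3, limma-trend) on log2(FPKM + 1). The 13927 genes whose mean reached 1 FPKM were fitted together, and p-values were Benjamini-Hochberg adjusted over them. Genotype was the only term, and library number was compared in a fit of its own. The fit was also run on simulated data, and no result given here rests on that run. For low genes this scale shrinks fold changes. Counting intervals are exact (Clopper-Pearson, conditional on both libraries' fragments) and cover counting error only. Python 3.11.15, pandas 2.3.3, scipy 1.17.1 and BLAST 2.17.0 were used. At 95% identity over at least 150 bases, the expressed members matched 13 other genes, all with exons overlapping the member at the same place.

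Members and lists were chosen with earlier results of these data known. Members named in full are Kcna3, the 12 highest, the 5 with the smallest p in each direction of genotype, the 6 with the largest difference in each direction of number, the highest of each subfamily, those within 0.2 FPKM of the threshold, up to 4 per companion list, and those with overlapping genes; others were chosen after their values were seen. Some of these genes are not reported here, and their points are left out of the plots by gene, while counts and medians cover all members. Alternatives were other pseudocounts, filters and scalings, a replicate block, each library left out, and limma-voom on recovered fragments.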

Additional observations from a re-analysis of the deposited data

How the results depend on the processing

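The expressed count of 43 stayed within 1.5 times under every threshold and left-out library tried, and 0 members passed for genotype under each alternative. The count of all genes past the threshold for genotype was 0 except with the replicate number as a block, where it was 5 (3 higher, 2 lower), none of them a member. With 2 pairs the libraries share only a number, and the deviations of same-numbered libraries from their group means correlated at 0.799 across genes. The adjusted p of Kcna3 was 0.635 with the block and 0.635 to 1 over all alternatives.

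For library number, the count of all genes was 4877, against 2976 without a filter and 2614 to 6850 with 1 library left out. The members past the threshold were 26, against 17 at a mean of at least 2 FPKM, where fewer members were tested, and 12 to 29 with 1 library left out. The members' median difference by number was 0.496 to 0.566 with 1 library left out, an alternative added after the data were seen.

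The members' median genotype difference of 0.009 became -0.008 at a mean of at least 2 FPKM, -0.032 with quantile normalization, -0.028 with median centring and 0.038 with limma-voom, and -0.288 to 0.279 with 1 library left out, which sets number partly against genotype. With 1 library left out, the differences of Kcnn3 (-0.18 to 0.60), Kcnh2 (-0.88 to 0.14), Kcnmb4 (-0.73 to 0.16) and Kcnk3 (-0.42 to 0.11) changed sign, while Kcna3 stayed between 0.57 and 1.31. Beyond the fewer libraries or genes these alternatives use, the cause was not tested.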
